A study of Mus musculus with 72 samples.

Results

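The genes described here encode the UDP-glucuronosyltransferases (UGTs) and the glutathione transferases (GSTs) of mouse liver. They were chosen by symbol, as every row of the count table named Ugt1a, Ugt2a, Ugt2b, Ugt3a, Gsta, Gstm, Gstp, Gstt, Gstk, Gstz, Gsto or Mgst followed by a number. This gave 36 of 20105 genes, and 31 of them reached a mean of 1 CPM (counts scaled to library size) or more in at least 1 group. That group could be a tumour group, which favours weak genes that rise with a tumour, and counts of genes that rose carry this limit. The 31 were 11 UGT genes, 17 GST genes and 3 microsomal GST (Mgst) genes. The other 5 had highest group means of 0.775 CPM (Gsta1), 0.831 (Gstm5), 0.816 (Gsto2), 0.126 (Gstt4) and 0.0414 (Ugt2a1). Of the 36, 34 entered the tests of at least 1 fraction.

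RNA was counted in nuclei of 36 Hep-INTACT mice, which all carried the CAG-Sun1/sfGFP and Albumin-Cre alleles. The Albumin promoter drives Cre in hepatocytes, so that their nuclei carry a tagged envelope protein and can be pulled down on beads. Each animal gave 2 libraries, 1 of bead-bound hepatocyte nuclei and 1 of whole liver nuclei, and the 18 groups held 4 animals each. BALB/c mice received PBS or C26 tumour cells and were studied at pre-cachexia or cachexia, or received PBS or NC26 cells. C57BL/6N mice received PBS or 8025 cells and were studied at cachexia, or received PBS or MC38 cells. C26 and 8025 cells cause cachexia, the wasting of body mass in cancer. Livers of the cachexia groups were taken after a body weight loss of over 10%, and those of all groups at zeitgeber time 9 h. NC26 and MC38 tumours left weight stable. Age and sex were not given in the labels.

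UGTs sit in the endoplasmic reticulum and attach glucuronic acid to bilirubin, steroids, bile acids and drugs, which makes them soluble enough to leave in bile or urine. GSTs attach glutathione to reactive electrophiles such as epoxides and products of lipid peroxidation, and most are soluble enzymes of the cytosol. Microsomal GSTs are a separate family of membrane proteins with related activities. Hepatocytes are the main site of both reactions, and many of these genes are known to respond to the sensors NRF2, AHR, CAR and PXR. Their levels were compared here between tumour-bearing mice and PBS mice of the same cohort, and between strains and fractions.

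The families were built by gene duplication, and similar copies can exchange reads. The stretches shown first are exons of neighbouring genes that differ at a few positions, and some other exons of these genes are more alike. Ugt2b5, Ugt2b37 and Ugt2b38 lie on the minus strand of chromosome 5, within the Ugt2 cluster at chr5:86889770-87490871 (mm10). The coding sequences of Ugt2b5 and Ugt2b38 were 97.04% identical, with 47 differences in 1590 bases, and only 5 of 724 bases differed in the first coding exon. Ugt2b5 and Ugt2b37 were 94.65% identical. The third coding exon, of 132 bases, is given for Ugt2b5 (chr5:87136094-87136225), Ugt2b38 (chr5:87420430-87420561) and Ugt2b37 (chr5:87250571-87250702), with the 7 positions that differ among them in capitals.
Ugt2b5: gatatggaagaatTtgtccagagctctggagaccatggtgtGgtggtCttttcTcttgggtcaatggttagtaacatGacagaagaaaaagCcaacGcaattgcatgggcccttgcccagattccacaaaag
Ugt2b38: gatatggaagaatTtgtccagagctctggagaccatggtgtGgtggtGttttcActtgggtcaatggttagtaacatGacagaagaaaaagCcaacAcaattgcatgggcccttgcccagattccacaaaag
Ugt2b37: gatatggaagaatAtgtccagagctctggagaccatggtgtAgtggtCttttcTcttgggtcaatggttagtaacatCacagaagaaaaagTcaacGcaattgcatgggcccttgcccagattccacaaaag
Gstp1 and Gstp2 lie side by side on the minus strand of chromosome 19. Their coding sequences were 98.1% identical, with 12 differences in 630 bases. The fifth coding exon, of 104 bases, is given for Gstp1 (chr19:4036688-4036791) and Gstp2 (chr19:4040982-4041085), with the 6 positions that differ in capitals.
Gstp1: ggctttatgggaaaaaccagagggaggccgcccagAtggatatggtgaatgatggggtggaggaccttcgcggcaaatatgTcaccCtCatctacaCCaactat
Gstp2: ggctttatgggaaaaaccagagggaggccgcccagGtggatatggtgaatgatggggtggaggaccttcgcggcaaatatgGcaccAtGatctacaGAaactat
A read of 50 bases from such an exon meets at most a few of these positions. Of all stretches of 50 bases in the spliced transcripts of GENCODE M21, 41.7% of those of Ugt2b5, 37.4% of Ugt2b38 and 18.3% of Ugt2b37 also occurred in another gene. The shares were 33.7% for Gstp1, 54.3% for Gstp2, 49.8% for Gsta2, 28.8% for Gstm3 and 18.9% for Gstm1. No stretch of Ugt2b1, Gsta4, Gstt1, Gstm4, Gstk1, Gsto1, Mgst1 or Mgst3 was shared. The counts also take in introns, where copies differ more, and this check covers exons only. Values of Ugt2b5, Ugt2b38, Ugt2b37, Gstp1, Gstp2, Gsta2 and Gstm3 are uncertain to that extent. Gsta3 lies wholly within the noncoding gene Gm28836, and Gstz1 overlaps Pomt2 over 804 bases and Gm6566 over 6011 bases, so that reads of these pairs could be mixed where strand was not used.

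The Ugt1a locus on chromosome 1 joins alternative first exons to common later exons, so that 9 genes end in the same sequence. Ugt1a10 was the only 1 of the 9 with a row in the table. Its counted length was 15368 bases of a span of 164592 (chr1:88055411-88220002, plus strand). This is the distance from its own start to the start of Ugt1a9, so its value stands for the first exon of Ugt1a10 and the intron behind it, not for the common exons. Ugt1a1, the bilirubin-conjugating enzyme, is not analysed here. The 250 bases before the RefSeq start of Ugt1a10 (GRCm38.p6, chr1:88055161-88055410, plus strand) held a match to the HNF1 motif on the opposite strand, 75 bases before the start and shown in capitals. HNF1 is a liver transcription factor. The same stretch before Gsta3 (chr1:21240335-21240584, plus strand) held the core of the antioxidant response element TGACNNNGC, to which NRF2 is known to bind, 121 bases before the start. Both are shown for these matches, in capitals, and because both genes are described at length below.
Ugt1a10: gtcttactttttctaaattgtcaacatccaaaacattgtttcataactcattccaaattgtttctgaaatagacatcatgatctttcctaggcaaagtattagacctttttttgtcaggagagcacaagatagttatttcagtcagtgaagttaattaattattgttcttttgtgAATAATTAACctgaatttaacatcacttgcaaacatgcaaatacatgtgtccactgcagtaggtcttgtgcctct
Gsta3: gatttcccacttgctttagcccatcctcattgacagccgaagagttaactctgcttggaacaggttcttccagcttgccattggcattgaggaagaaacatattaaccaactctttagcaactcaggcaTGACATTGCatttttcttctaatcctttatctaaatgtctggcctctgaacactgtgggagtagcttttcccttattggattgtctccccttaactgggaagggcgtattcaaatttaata
The antioxidant core also occurred before the inner of 2 RefSeq starts of Gstm7 (chr3:107931725-107931753, minus strand), which places it inside the span counted for the gene, and not before the outer start. Before Mgst1 it occurred on the opposite strand (chr6:138140461-138140489, plus strand). Both windows have 29 bases.
Gstm7: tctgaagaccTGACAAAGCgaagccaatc
Mgst1: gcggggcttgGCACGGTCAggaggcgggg
A promoter entry was present for 28 of the 31 genes, and 3 of the 28 held this core on either strand, against 10.2% of 32851 RefSeq promoters of the same length. The HNF1 motif occurred on either strand in 0.371% of promoters and in 1 of the 28. The dioxin receptor core TNGCGTG (4.1% of promoters) occurred before Gsta2, and the STAT dimer site TTCNNNGAA (7.02%) before the innermost of 3 RefSeq starts of Gstm6, inside its counted span. The direct repeat bound by HNF4 and PPAR type receptors (0.0335%) and CACGTG (6.02%) occurred before none of the 28. A match is a likeness in letters and was not tested for binding.

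In PBS animals Gsta3 took most reads of the 31 genes in hepatocyte nuclei. Gsta3, an alpha class GST known to detoxify aflatoxin epoxide in mice, ranged from 2079 to 3264 CPM over the 16 PBS animals, with a median of 2681. It made up 52.1% of the CPM of all 31 genes and 82.2% of the GST sum, both without correction for gene length. Its group means lay between 2665 and 2735 CPM in the 4 PBS groups, so that strain and cohort made little difference to it. Levels per kilobase of counted length allow only a rough comparison between genes, since counts and length both take in introns. The mean levels in these 16 animals were 107.7 CPM per kb for Gsta3, 44.6 for Gstp1, 25.6 for Ugt2b5, 21.2 for Mgst1 and 19.4 for Ugt2b1. Gstz1 and Gstt2 followed at 15.9 each, and Ugt2b36 stood at 14.8. At the low end were Gstm7 at 0.0961, Ugt2b37 at 0.0661 and Mgst2 at 0.00313 CPM per kb. Within the UGT sum, Ugt2b5 took 25.7% and Ugt2b36 25.6%. Calls rest on counts, not on levels per length, and were weakest for genes of a few CPM or less, such as Gstm7, Ugt2b37 and Mgst2.

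The range over the 9 hepatocyte groups separated steady from variable genes. Gstz1, the maleylacetoacetate isomerase of tyrosine breakdown, had group means between 253 and 320 CPM, a ratio of 1.26. Gstk1, the mitochondrial and peroxisomal kappa class enzyme, had a ratio of 1.41. Ugt2b1 spanned 9.01 to 304 CPM, a ratio of 33.7. The ratios of Ugt2b38 (199) and Ugt2b37 (41.3) were larger, and for both the highest group mean was that of MC38 tumours, where 1 animal, described below, held most of the counts.

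**Figure D1:**
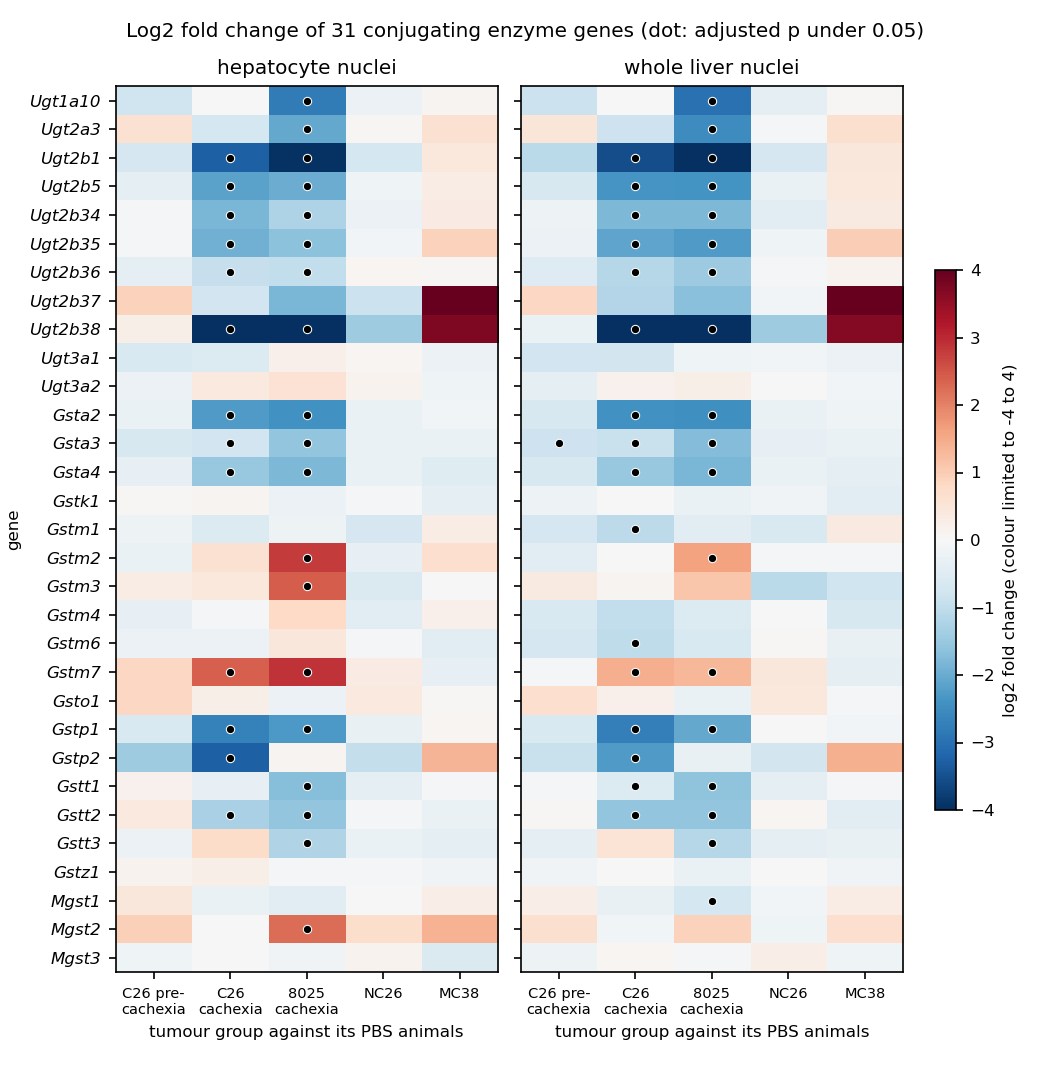
Log2 fold change of each of the 31 genes (rows) in 5 tumour groups against the PBS animals of the same cohort (columns), in hepatocyte nuclei (left) and whole liver nuclei (right). Colour runs from blue (lower) to red (higher), is limited to -4 to 4, and black dots mark an adjusted p under 0.05. The dots stand in the 2 cachexia columns of both panels, apart from Gsta3 in whole liver at pre-cachexia.

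In C26 cachexia, 12 of the 31 genes fell and 1 rose in hepatocyte nuclei, whereas 10.0% of all 13274 genes tested were called lower and 12.2% higher. Genes were called at an adjusted p under 0.05 by edgeR's quasi-likelihood test with Benjamini-Hochberg adjustment over all genes of the fraction, the test behind every adjusted p given here. Of the 11 UGT genes 6 fell and none rose, and of the 17 GST genes 6 fell and 1 rose. No Mgst gene was called. The median log2 fold change was -0.53 over the 31 genes and -0.92 over the UGT genes, beside 0.00 over all genes. The UGT sum was 1931 ± 684 CPM (SD, n = 4) in PBS animals and 818 ± 179 in cachexia, and the GST sum was 3274 ± 206 and 2058 ± 473.

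Ugt2b1, a hepatic UGT of the steroid-conjugating UGT2B group, showed a clear loss. It measured 191, 315, 223 and 485 CPM in the 4 PBS animals and 41.3, 29.5, 25.6 and 30.9 CPM in the 4 cachectic animals. The groups did not overlap, and the fitted difference was -3.25 (log2, SE 0.40, adjusted p 7.4e-07), or 9.54-fold. Ugt2b5 measured 238, 510, 469 and 667 CPM in PBS animals and 84.0, 120, 64.0 and 164 in cachexia. All cachectic animals lay below the lowest PBS animal, with a difference of -2.13 (SE 0.41, adjusted p 0.00033). Ugt2b35 fell by 1.93 on the log2 scale (SE 0.39, adjusted p 0.00059), from 106 to 329 CPM in PBS animals to between 38.3 and 63.9. Ugt2b34 fell by 1.83 (SE 0.32, adjusted p 0.00012), from between 69.8 and 250 CPM to between 31.6 and 50.6. The lowest PBS value of Ugt2b1, Ugt2b5, Ugt2b34 and Ugt2b35 came from animal 1 in each case. That library also had 7.0% of its counts in 5 genes (Cmss1, Lars2, Cdk8, Camk1d and Gphn) taken as a gauge of reads that resemble ribosomal RNA. Without it 13 genes were called, as with it.

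Ugt2b36 lies in the same cluster and fell less, by 0.92 on the log2 scale (SE 0.29, adjusted p 0.019). Its cachectic animals measured between 191 and 291 CPM and the PBS animals between 265 and 577, so that the groups overlapped. The call was lost without cachectic animal 3 (adjusted p 0.065) or PBS animal 4 (adjusted p 0.061). Ugt2b38 was near the limit of counting, with 0, 2, 4 and 5 counts in cachexia and 7, 8, 9 and 220 in PBS animals. Its call was lost without PBS animal 4 (adjusted p 0.53) and without any of the 4 cachectic animals (0.067 to 0.088). The other UGT genes did not pass the test. Ugt1a10 stood at 22.5, 21.3, 17.4 and 20.1 CPM in PBS animals and at 20.9, 12.0, 20.2 and 28.2 in cachexia, so that the groups overlapped throughout. Ugt3a1 and Ugt3a2, which use sugars other than glucuronic acid, had differences of -0.55 and 0.39.

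Among the GST genes the pi and alpha classes fell. Gstp1, a pi class enzyme active towards acrolein and other small electrophiles, measured 250, 116, 133 and 69.9 CPM in PBS animals and 12.7, 47.4, 10.6 and 16.4 in cachexia. The groups were apart although cachectic animal 2 stood well above the other 3, and the difference was -2.71 (SE 0.38, adjusted p 4.6e-06), or 6.53-fold. Gstp2, whose exons share reads with Gstp1, had 78, 31, 31 and 19 counts in PBS animals and 3, 9, 2 and 7 in cachexia, and was called lower (adjusted p 0.003). Gsta3 measured 2533, 2880, 2859 and 2483 CPM in PBS animals and 1697, 1984, 981 and 1714 in cachexia. Every cachectic animal lay below every PBS animal, and the difference was small, -0.75 (SE 0.24, adjusted p 0.022). Without cachectic animal 3 it was -0.60, with an adjusted p of 0.093.

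Gsta4, which has a known preference for hydroxynonenal, measured 16.9, 17.2, 23.0 and 16.3 CPM in PBS animals and 8.27, 4.84, 6.66 and 6.15 in cachexia. The groups did not overlap (-1.50, SE 0.43, adjusted p 0.012). Gsta2 measured 9.83, 10.1, 11.01 and 9.06 CPM in PBS animals and 3.84, 1.84, 1.62 and 1.11 in cachexia. The gap was clear in every animal (-2.27, SE 0.76, adjusted p 0.03), yet the call was lost when any of 4 libraries was left out, with adjusted p between 0.052 and 0.077. Gstt2, a theta class gene, measured 43.9, 34.5, 29.8 and 38.5 CPM in PBS animals and 17.1, 14.6, 17.6 and 10.2 in cachexia. It fell by 1.30 on the log2 scale without overlap of the groups (SE 0.35, adjusted p 0.0076). Its neighbour Gstt1 measured between 33.5 and 43.9 CPM in PBS animals and between 16.2 and 41.0 in cachexia (-0.34, adjusted p 0.31).

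Gstm7 was the gene that rose, from 0.978, 0.561, 0.771 and 0.309 CPM to 1.88, 5.25, 2.05 and 4.51 CPM. The levels were low but did not overlap (2.398, SE 0.52, adjusted p 0.0012). The other mu class genes were not called: Gstm1, a known abundant mu class enzyme of mouse liver, had a difference of -0.53 and Gstm3 one of 0.41. Gstz1 (0.24), Gstk1 (0.11), Gsto1 (0.24) and Mgst1 (-0.28) did not pass the test either. Gsto1 is an omega class enzyme that reduces dehydroascorbate, and Mgst1 protects membranes of the endoplasmic reticulum and mitochondria.

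**Figure D2:**
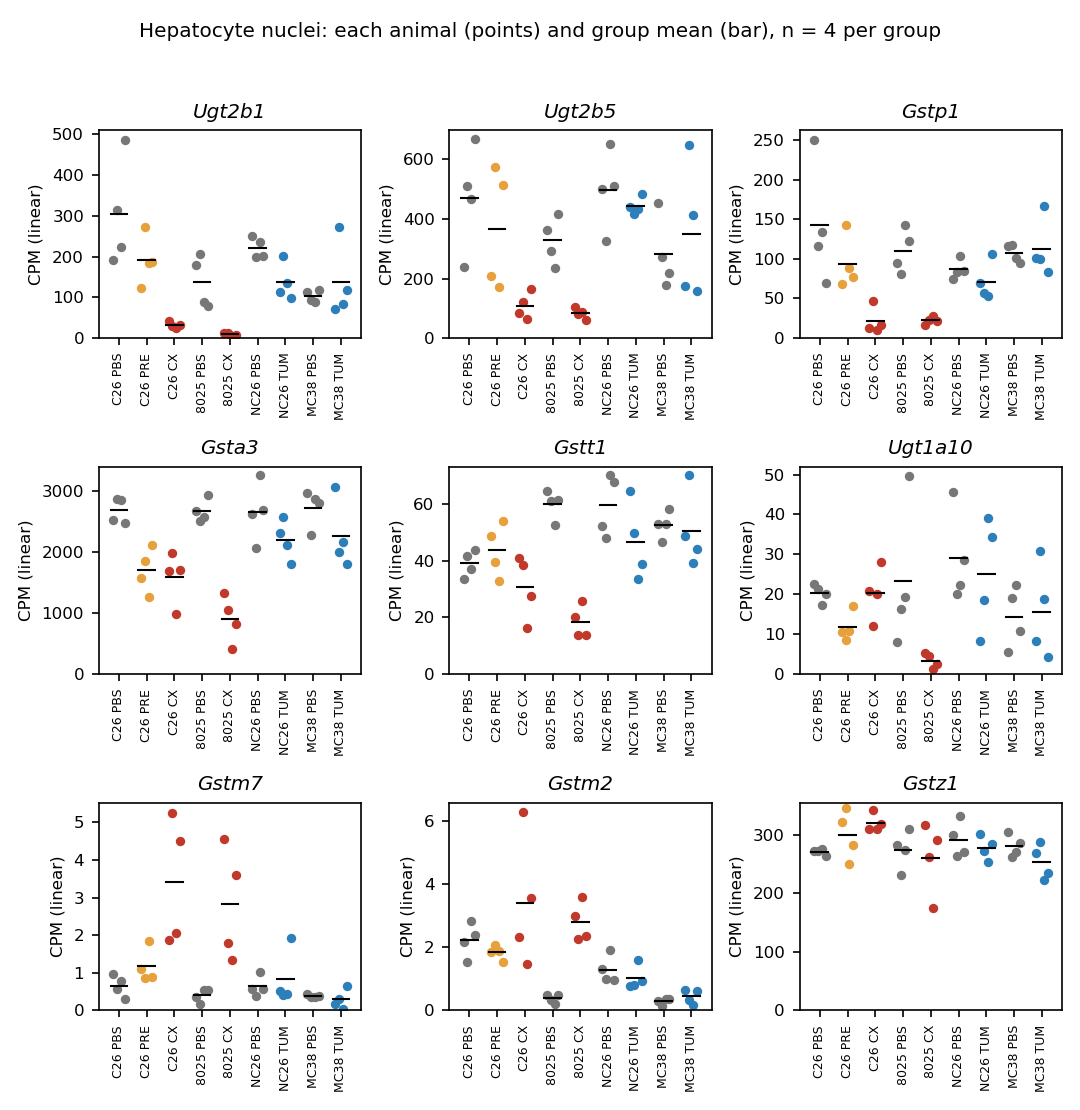
CPM of 9 genes in hepatocyte nuclei, with 1 point for each animal and a bar for the mean of the 4 animals of each of 9 groups, on linear axes from 0. Ugt2b1, Ugt2b5, Gstp1 and Gsta3 are low in both cachexia groups (red), Gstt1 and Ugt1a10 are lowest in 8025 cachexia, Gstm7 is high in both, and Gstz1 stays between 175 and 346 CPM in all 36 libraries.

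At C26 pre-cachexia none of the 31 genes was called in hepatocyte nuclei, while 4.78% of all genes were called higher and 2.94% lower. At an unadjusted p under 0.05 there were 4, and DESeq2 called 1, Gsta3 (adjusted p 0.047). Gsta3 measured 1573, 1855, 1271 and 2128 CPM at pre-cachexia, below the lowest PBS animal of 2483 CPM in all 4. The edgeR difference was -0.66 (SE 0.24, adjusted p 0.087), close in size to that of cachexia. Ugt2b1 measured 124, 273, 184 and 186 CPM, which overlapped with PBS animals (-0.66, adjusted p 0.28), and Ugt2b5 measured 210, 573, 173 and 514 CPM. The pre-cachexia animals fell into neither a uniformly high nor a uniformly low group for these genes: the UGT sum was 1141, 2349, 1069 and 1892 CPM. Gstp1 (-0.60, adjusted p 0.31) and Gstt2 (0.40, adjusted p 0.51) did not pass the test.

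Between pre-cachexia and cachexia, 7 genes fell and 1 rose in hepatocyte nuclei, beside 4.27% and 4.81% of all genes. Ugt2b1 differed by -2.59 (SE 0.39, adjusted p 5.9e-05), Gstp1 by -2.11 (adjusted p 0.00033), Ugt2b35 by -1.90 (adjusted p 0.0019) and Ugt2b34 by -1.78 (adjusted p 0.00052). Ugt2b5 (-1.77, adjusted p 0.0048) and Gstt2 (-1.70, adjusted p 0.0019) were also lower at cachexia. Mgst1 measured between 409 and 582 CPM at pre-cachexia and between 259 and 368 at cachexia (-0.74, adjusted p 0.027), and Gstm7 was higher at cachexia (1.57, adjusted p 0.041). The calls of Mgst1 and Gstm7 were each lost when any of 5 libraries was left out. This comparison and those against PBS share animals, so the 3 sets of values are not independent.

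In 8025 cachexia 15 of the 31 genes fell and 4 rose in hepatocyte nuclei, beside 13.1% and 16.2% of all genes. Of the 11 UGT genes 8 fell, with a median over all 11 of -1.83, and of the 17 GST genes 7 fell and 3 rose, with a median of -0.24. The UGT sum was 1261 ± 263 CPM in PBS animals and 541 ± 94.4 in cachexia, and the GST sum was 3270 ± 273 and 1290 ± 416 (SD, n = 4).

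Ugt2b1 measured 180, 207, 87.7 and 78.6 CPM in PBS animals and 12.6, 11.8, 3.90 and 7.77 in cachexia. The difference of -3.95 (SE 0.42, adjusted p 5.1e-08), or 15.4-fold, was larger than that of any other gene of the 31 except Ugt2b38, which was near the counting limit with 1, 3, 3 and 0 counts in cachexia and 52, 315, 14 and 2 in PBS animals. Without PBS animal 2 Ugt2b38 was not called (adjusted p 0.15). Ugt1a10 measured 8.17, 16.3, 19.4 and 49.6 CPM in PBS animals and 5.33, 4.47, 1.20 and 2.46 in cachexia. PBS animals varied widely, yet all 4 stood above the cachectic animals (-2.79, SE 0.58, adjusted p 0.00048). Ugt2a3 measured 188, 210, 117 and 58.2 CPM in PBS animals and 47.9, 37.0, 26.9 and 28.4 in cachexia (-2.03, SE 0.50, adjusted p 0.0027). Ugt2a3 is a UGT2A enzyme, a group known to act on bile acids.

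Ugt2b5 measured 364, 294, 236 and 417 CPM in PBS animals and 104, 79.2, 88.3 and 60.6 in cachexia. The separation was wide, with a difference of -1.98 (SE 0.41, adjusted p 0.00049). Ugt2b35 (-1.65), Ugt2b34 (-1.23) and Ugt2b36 (-0.97) fell with adjusted p between 0.002 and 0.011, and in none of these 3 did a cachectic animal reach the lowest PBS animal. Ugt3a1 and Ugt3a2 were not called.

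Gstp1 measured 94.7, 80.5, 142 and 123 CPM in PBS animals and 16.9, 23.0, 27.3 and 21.6 in cachexia. All cachectic animals were low (-2.31, SE 0.37, adjusted p 2.4e-05). Gsta3 measured 2675, 2507, 2582 and 2941 CPM in PBS animals and 1326, 1050, 408 and 823 in cachexia. It fell in every animal, by 1.57 on the log2 scale (SE 0.24, adjusted p 1.4e-05). Because Gsta3 carries most GST reads, its fall sets most of the fall of the GST sum. Gstt1, which acts on halogenated methanes, measured 64.6, 61.2, 52.7 and 61.5 CPM in PBS animals and 20.2, 13.7, 25.9 and 13.9 in cachexia. The PBS animals lay close together and far above the cachectic animals (-1.70, SE 0.24, adjusted p 4.3e-06).

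Gstt2 measured 59.2, 41.3, 52.2 and 68.4 CPM in PBS animals and 14.3, 14.1, 28.8 and 17.2 in cachexia (-1.57, adjusted p 0.0011). Gstt3 had the smallest fall of the theta class (-1.20, adjusted p 0.027), and its call was lost when any of 5 libraries was left out. Gsta4 measured 14.7, 12.1, 12.3 and 20.1 CPM in PBS animals and 2.29, 1.63, 11.1 and 1.77 in cachexia. Cachectic animal 3 stood near the PBS animals and apart from its group, and the difference was -1.80 (SE 0.44, adjusted p 0.0026). Gsta2 measured 10.7, 5.67, 15.9 and 31.7 CPM in PBS animals and 2.78, 0.474, 7.90 and 0.492 in cachexia. The same animal 3 was its highest cachectic value and overlapped with PBS animal 2 (-2.41, SE 0.75, adjusted p 0.016), and the call was lost without cachectic animal 2 (adjusted p 0.050), cachectic animal 4 (adjusted p 0.051) or PBS animal 4 (adjusted p 0.079).

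The 4 genes that rose were weakly transcribed, and 3 had their highest group mean in cachexia, which could itself meet the minimum of 1 CPM. For Mgst2 it was 1.36 CPM, in whole liver nuclei of 8025 cachexia, and no hepatocyte group exceeded 0.410 CPM. It was 3.93 CPM for Gstm7 (whole liver, C26 cachexia) and 3.66 for Gstm3 (hepatocyte, 8025 cachexia). Gstm2 was highest in whole liver nuclei of C26 PBS animals (4.73 CPM). Gstm2 measured 0.506, 0.322, 0.215 and 0.485 CPM in PBS animals and 3.003, 2.26, 3.60 and 2.36 in cachexia. All cachectic animals lay above 2 CPM and all PBS animals below 1 (2.79, SE 0.41, adjusted p 6.3e-06). Gstm7 measured 0.365, 0.161, 0.538 and 0.545 CPM in PBS animals and 4.54, 1.79, 1.35 and 3.59 in cachexia (2.89, SE 0.58, adjusted p 0.00033). Gstm3 measured 1.31, 0.948, 12.1 and 0.295 CPM in cachexia and between 0.362 and 1.15 in PBS animals. Its rise came from cachectic animal 3, without which the difference was 0.33 (adjusted p 0.76). Mgst2, which is known for its part in cysteinyl leukotriene synthesis, had 16, 7, 13 and 4 counts in cachexia and 2, 1, 1 and 3 in PBS animals (adjusted p 0.032, lost when any of 4 libraries was left out). Gstm1 (-0.21), Gstz1 (-0.07), Gstk1 (-0.24), Gsto1 (-0.24) and Mgst1 (-0.45) were not called.

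RNA of other liver cells was present in the hepatocyte fraction, and that of some moved with cachexia. The counts of called markers stand beside 12.2% of all genes higher and 10.0% lower in C26, and 16.2% and 13.1% in 8025. The 10 Kupffer cell and macrophage markers summed to between 44.5 and 55.7 CPM in 8025 PBS animals and between 131 and 164 in 8025 cachexia, where 8 of 10 rose. In the C26 cohort the sums were 45.9 to 75.5 CPM with PBS, 76.7 to 96.97 at pre-cachexia and 81.1 to 119 at cachexia, where 6 of 10 rose. None of these markers was at 0 in a whole group. Of 9 bile duct markers 7 rose in 8025 cachexia, with sums of 218 to 289 CPM in PBS animals and 217 to 682 in cachexia, the highest again in animal 3. The mean bile duct sums were 239 CPM in hepatocyte and 311 in whole liver nuclei of 8025 PBS animals, and 356 and 385 in cachexia. For the Kupffer cell markers the means in 8025 PBS animals were 50.1 and 335 CPM. The bile duct sums were thus far less reduced in hepatocyte nuclei, and how much of them came from other cells was not tested. The 8 neutrophil markers summed to between 0.646 and 1.25 CPM in 8025 PBS animals, with 3 at 0, and between 6.64 and 10.2 in cachexia, with none at 0. The part of these cells in the rises of Gstm2, Gstm7, Gstm3 and Mgst2 was not tested. Of the other lists, 4 of 7 monocyte markers tested rose in C26 and 6 of 7 in 8025. The monocyte list holds Fn1, which hepatocytes also make. Endothelial markers rose in 2 of 10 in each model, stellate cell markers in 1 of 10 in C26 and 3 of 10 in 8025 (1 fell), and bile duct markers in 2 of 9 in C26. Counts of 1 or 2 in such lists are near the background. Of 3 T and NK cell markers tested none was called in C26 and 1 rose in 8025, and of 4 B and plasma cell markers 1 fell in C26 and none was called in 8025. The 8 hepatocyte markers, of which 2 rose and 1 fell in C26 and 1 rose and 1 fell in 8025, summed to between 9413 and 25791 CPM in all 36 hepatocyte libraries, with none at 0. In these pooled nuclei, fewer cells of a type and less RNA in each cannot be told apart.

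**Figure D3:**
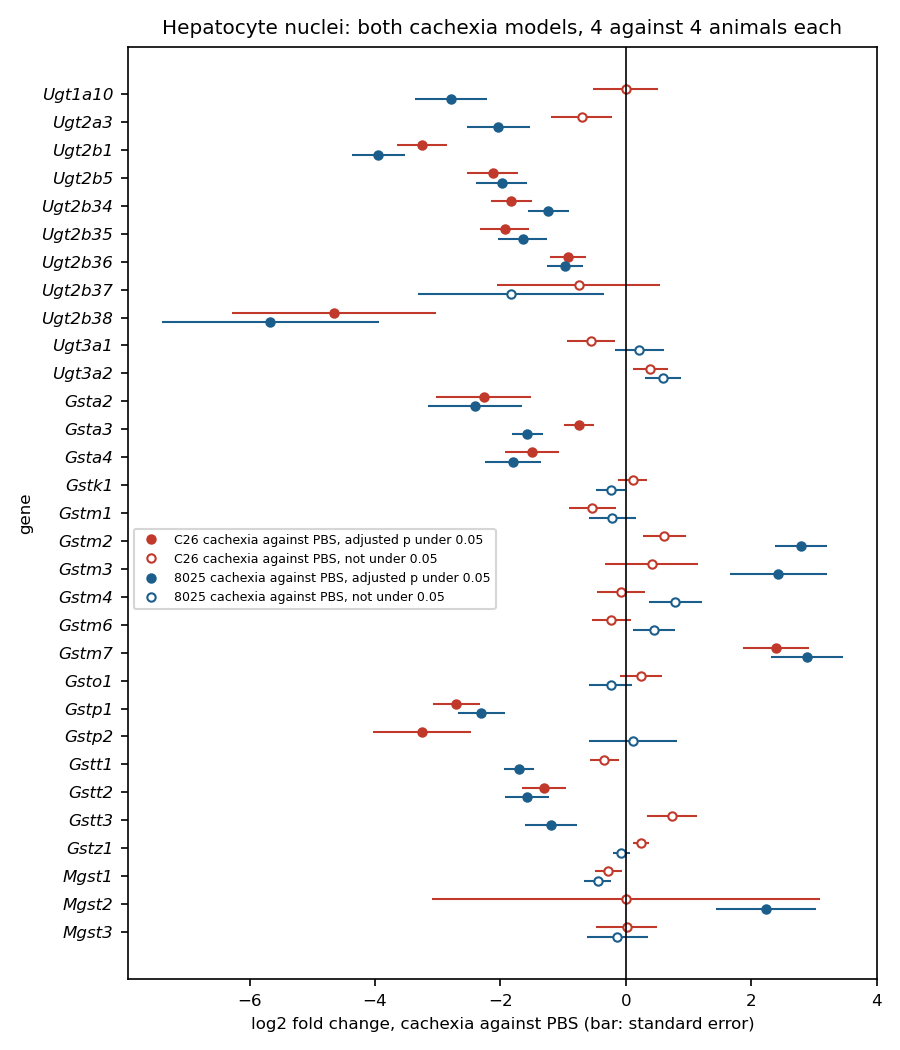
Log2 fold change of each of the 31 genes in hepatocyte nuclei of C26 (red) and 8025 (blue) cachexia against PBS animals of the same cohort, 4 animals against 4, with the standard error as a bar. Filled points had an adjusted p under 0.05. Ugt2b1, Ugt2b5, Ugt2b34, Ugt2b35, Gsta4 and Gstp1 lie to the left in both models, whereas Gstt1, Ugt1a10 and Gstm2 lie apart.

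Both cachexia models called 11 genes lower in hepatocyte nuclei, which is 91.7% of the 12 called in C26 and 73.3% of the 15 called in 8025. Over all genes tested, 724 were called lower in both, which is 54.5% of those called lower in C26 and 41.6% of those in 8025. The 2 models share no animals. The 11 were Gsta2, Gsta3, Gsta4, Gstp1, Gstt2, Ugt2b1, Ugt2b5, Ugt2b34, Ugt2b35, Ugt2b36 and Ugt2b38, of which Ugt2b38, Gsta2, Ugt2b36 and Gsta3 were lost in C26 when single libraries were left out, as given above. Gstm7 was called higher in both. The difference between the 2 effects was itself called for 2 genes, 1 in each direction, beside 0.392% and 0.565% of all genes. For Gstt1 the C26 effect minus the 8025 effect was 1.36 (SE 0.33, adjusted p 0.04), and for Gstm2 it was -2.18 (SE 0.53, adjusted p 0.038). Neither was called when only the 4 groups compared were fitted, and the calls were lost without any of 11 libraries for Gstt1 (adjusted p 0.059 to 0.095) and any of 10 for Gstm2 (0.052 to 0.10). Gstm2 stood at 2.19, 1.54, 2.83 and 2.39 CPM in the PBS animals of the C26 cohort and between 0.958 and 1.91 CPM in those of the NC26 cohort, both BALB/c, above the 0.215 to 0.506 CPM of the 8025 PBS animals. Ugt1a10, which was called in 8025 cachexia and not in C26, was called for the difference in whole liver nuclei (2.99, adjusted p 0.013). Gstp2, Gstt3 and Ugt2a3 were called in 1 model each, and the difference between models in hepatocyte nuclei was not called for any of them. Strain, tumour line and cohort changed together between the models and cannot be told apart.

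In mice with weight-stable tumours none of the 31 genes was called in hepatocyte nuclei. For NC26 the background was 0.316% of genes higher and 0.00753% lower, no gene of the 31 had an unadjusted p under 0.05, and DESeq2 called none. For MC38 the background was 0% in both directions, 4 genes of the 31 had an unadjusted p under 0.05, and DESeq2 called none. Ugt2b1 measured 112, 203, 134 and 99.5 CPM with NC26 tumours and 250, 199, 235 and 202 in their PBS animals (-0.69, adjusted p 0.45). With MC38 tumours it measured 71.3, 272, 84.4 and 119 CPM, and 112, 93.5, 87.9 and 117 with PBS. Gsta3 had a difference of -0.27 in both, and Gstp1 of -0.29 with NC26 and 0.07 with MC38.

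Animal 2 of the MC38 tumour group stood apart for the UGT2B genes. Its hepatocyte library held 53.8 CPM of Ugt2b37 and 57.4 CPM of Ugt2b38 (1269 and 1355 counts), while the other 3 tumour animals held between 0.132 and 0.523 CPM and between 0.529 and 1.79 CPM. Its separately made whole liver library gave 54.2 and 69.3 CPM. The same animal had the highest values of its group for Ugt2b1, Ugt2b5, Ugt2b35 and Ugt2a3, and its UGT sum was 2443 CPM against 829 to 1391 CPM in the other 3. Ugt2b37 and Ugt2b38 share exon stretches with Ugt2b5, and how much of each count belongs to which gene was not tested.

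The cachexia effects were tested against the effects of the weight-stable tumour of the same strain. For C26 minus NC26, Ugt2b1 (-2.56, adjusted p 0.0077) and Gstp1 (-2.42, adjusted p 0.0083) were called lower and none higher, beside 0.957% and 0.934% of all genes. For 8025 minus MC38, 11 genes were called lower and 2 higher, beside 3.02% and 4.19% of all genes. These included Ugt2b1 (-4.36, adjusted p 1.2e-05), Ugt1a10 (-2.90, adjusted p 0.019), Ugt2a3 (-2.66, adjusted p 0.017), Ugt2b35 (-2.58, adjusted p 0.004), Gstp1 (-2.38, adjusted p 0.0041), Gstt1 (-1.64, adjusted p 0.0028) and Gsta3 (-1.29, adjusted p 0.017). Gstm7 (3.22) and Gstm2 (2.13) were higher. The Gstm2 call was lost without any of 7 libraries (adjusted p 0.050 to 0.078), and that of Ugt1a10 without 8025 PBS animal 4 (0.067) or MC38 tumour animal 2 (0.059). Of the called genes not named here, Ugt2b37 was lost without any of 8 libraries (0.067 to 0.68) and Ugt2b34 without any of 6 (0.050 to 0.081). Ugt2b38 was lost without 1 library, MC38 tumour animal 2 (0.059). Without MC38 tumour animal 2 the count of called genes was 8 instead of 13. The library numbers in the labels separate the C26 and 8025 cohorts from the NC26 and MC38 cohorts, so that tumour kind and library series cannot be told apart in these differences of effects.

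**Figure D4:**
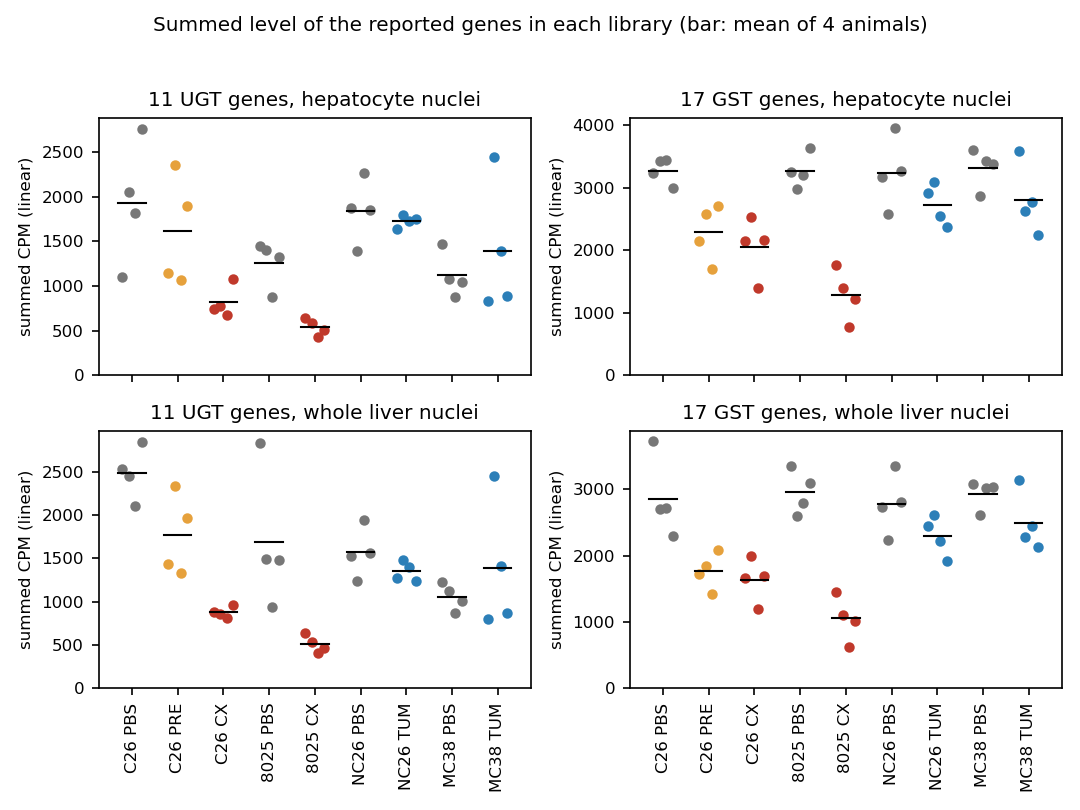
Summed CPM of the 11 UGT genes (left) and the 17 GST genes (right) in each library of hepatocyte nuclei (top) and whole liver nuclei (bottom), on linear axes from 0, with a bar for the mean of 4 animals. Sums in 8025 cachexia lie below those of all 8025 PBS animals in the 4 panels, and MC38 tumour animal 2 stands out in the UGT panels.

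Whole liver nuclei showed the same falls. In C26 cachexia 15 genes fell and 1 rose, beside 10.3% and 11.8% of all 13738 genes tested, and in 8025 cachexia 16 fell and 2 rose, beside 17.9% and 18.7%. All 12 genes called lower in hepatocyte nuclei in C26 and all 15 in 8025 were also called lower in whole liver nuclei of the same animals, whose libraries hold the same hepatocytes. In C26 this includes Gstp2, whose whole liver call was lost without any of the 8 libraries (adjusted p 0.063 to 0.13), and Ugt2b38, lost without any of 4 (0.062 to 0.21). The overlap between fractions was not computed over all genes, so that it cannot be called particular to these genes. Ugt2b1 differed by -3.56 in C26 and -4.65 in 8025, Gstp1 by -2.72 and -2.05, Ugt2b5 by -2.36 and -2.38, and Gsta3 by -0.88 and -1.75. Gstt1 was called lower in whole liver in C26 too (-0.56, adjusted p 0.038), as were Gstm1 (-1.04, adjusted p 0.031) and Gstm6 (-1.004, adjusted p 0.028). These 3 calls were unstable: Gstt1 was lost without any of 5 libraries (adjusted p 0.066 to 0.17), Gstm1 without any of 5 (0.056 to 0.12) and Gstm6 without any of 4 (0.050 to 0.12). Mgst1 was called lower in 8025 (-0.71, adjusted p 0.0074). Gstm7 rose in both, by 1.46 and 1.33, and Gstm2 in 8025, by 1.60. The Gstm7 call in 8025 was lost without cachectic animal 1 or PBS animals 1 or 3 (adjusted p 0.059 to 0.15), and in C26 without cachectic animal 2 (adjusted p 0.054). The Mgst1 call was lost without 8025 PBS animal 1 (adjusted p 0.051), and the C26 call of Gsta3 without C26 PBS animal 1 (adjusted p 0.055). Mgst2 and Gstm3, called in hepatocyte nuclei, were not called in whole liver (adjusted p 0.059 and 0.24).

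At C26 pre-cachexia Gsta3 was the only 1 of the 31 genes called in whole liver nuclei (-0.82, SE 0.24, adjusted p 0.024), beside 8.72% of genes higher and 4.04% lower. It measured 1273, 1249, 1090 and 1596 CPM at pre-cachexia and 3148, 2202, 2143 and 1720 CPM with PBS, without overlap. The call was lost without PBS animal 1 (-0.64, adjusted p 0.13), pre-cachexia animal 1 (adjusted p 0.059) or pre-cachexia animal 2 (adjusted p 0.06). From pre-cachexia to cachexia 6 genes fell and 1 rose in whole liver nuclei, beside 6.94% and 4.68% of all genes, and Gsta3 differed by -0.06. For NC26 the background was 0.706% higher and 0.0218% lower, no gene of the 31 was called by edgeR or DESeq2, and 0 had an unadjusted p under 0.05. For MC38 no gene at all was called (0%), 4 of the 31 had an unadjusted p under 0.05, and DESeq2 called 1 of the 31, Ugt2b37, which rests on animal 2.

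Differences between effects in whole liver nuclei were called for 4 genes between C26 and 8025 (3 higher and 1 lower, beside 1.97% and 4.60% of all genes). Of these, Gstt3 (adjusted p 0.056 to 0.11) and Gstm2 (0.050 to 0.16) were each lost without any of 11 libraries. For C26 minus NC26, 4 were lower and none higher (beside 1.73% and 1.67%), namely Ugt2b1, Gstp1, Ugt2b5 and Ugt2b35, the last lost without any of 8 libraries (adjusted p 0.052 to 0.082). For 8025 minus MC38, 13 were lower and 1 higher (beside 5.96% and 7.58%).

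The strains differed without a tumour. Over 8 BALB/c and 8 C57BL/6N PBS animals, 10 genes were higher and 1 lower in BALB/c hepatocyte nuclei, beside 20.5% and 20.7% of all genes. Ugt3a1 measured between 25.4 and 81.2 CPM in BALB/c and between 6.46 and 25.6 CPM in C57BL/6N, a difference of 1.61 (SE 0.28, adjusted p 3.2e-05). Ugt2b1 (1.12, adjusted p 0.00096), Ugt2b35 (1.09, adjusted p 0.0019) and Gsto1 (0.70, adjusted p 0.018) were also higher in BALB/c. Gstt2 was lower in BALB/c (-0.71, adjusted p 0.02). The mu class held the low genes with the largest strain differences, Gstm2 (2.31, adjusted p 2.3e-07), Gstm4 (1.57, adjusted p 9e-05) and Gstm6 (0.93, adjusted p 0.0019), all from the Gstm cluster of chromosome 3. Gsta3 (-0.02), Gstp1 (0.03) and Gstz1 (0.02) had differences near 0. In whole liver nuclei 13 genes were higher and 1 lower in BALB/c, beside 18.2% and 21.4% of all genes, and the count was 7 without animal 3 of the NC26 PBS group.

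Compared with whole liver nuclei of PBS animals, hepatocyte nuclei held 3 of the 31 genes at a higher and 4 at a lower level, beside 26.4% and 24.5% of 14054 genes. Gsta3 (0.34, adjusted p 0.016), Gstp1 (0.40, adjusted p 0.048) and Gstz1 (0.27, adjusted p 0.0004) were higher in hepatocyte nuclei. Mgst2 was far lower there (-2.58, SE 0.34, adjusted p 3e-09), as were Gstm2 (-1.11, adjusted p 2.6e-06), Gstm7 (-0.69, adjusted p 0.032) and Gstm6 (-0.45, adjusted p 0.023). With the animal as a block, which uses that both libraries came from 1 liver, 15 were higher and 8 lower, beside 41.4% and 28.2% of all genes under the same block. Without the block, the call of Gstp1 was lost when any of 7 animals was left out with both its libraries (adjusted p 0.050 to 0.19). That of Gstm7 was lost for any of 5 animals and that of Gstm6 for any of 3. Mgst2, Gstm2 and Gstm7 were also called higher in 8025 cachexia, where the call of Mgst2 was unstable as given above. This overlap was not computed over all genes, so that it cannot be called particular to these genes. For the Ugt2b genes the difference between fractions lay between -0.13 and 0.27, and none was called without the block. Values of single genes here come from the fit without the block, and its 7 calls were all kept with the block. Which of the Ugt2b genes were called with the block, the fit that uses the pairing, is not given here.

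The genes that supply and follow these enzymes were read from lists chosen with earlier results of these data known. Of 9 genes of glucuronic acid supply and removal 1 rose and 1 fell in each cachexia model, in hepatocyte nuclei as for all lists here. The counts of these lists stand beside 12.2% of all genes higher and 10.0% lower in C26, and 16.2% and 13.1% in 8025, so that 1 of 9 is near the background. Pgm1 rose by 1.16 in C26 and 1.36 in 8025, and Ugp2, which makes UDP-glucose, the precursor of the UGT sugar donor, fell by 0.87 and 1.04 on the log2 scale. Of 17 genes of glutathione synthesis and turnover tested, 4 rose and 2 fell in C26, and 3 rose and 3 fell in 8025. Chac1, which degrades glutathione, rose by 2.85 and 2.50, Lap3 fell by 1.02 in C26, and Ggct rose by 1.36 in 8025.

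Sulfotransferases, which compete for many of the same hydroxyl groups, showed changes in both directions. Of 11 tested, 6 rose and 2 fell in C26, and 5 rose and 3 fell in 8025. Sult1d1 rose by 2.35 in C26 (adjusted p 0.00018), and in 8025 Sult2a8 (-5.24, adjusted p 3.4e-06) and Sult1c2 (-2.35, adjusted p 1.4e-05) fell. Of 9 exporters of conjugates 1 rose and 1 fell in C26, and 2 rose and 2 fell in 8025. Abcc5 rose by 1.31 and 1.43, Abcg2 fell by 1.244 on the log2 scale in C26, and Abcc1 rose by 0.90 in 8025.

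Of 23 sensors and regulators tested, 4 rose and 3 fell in C26, and 2 rose and 4 fell in 8025. Nfe2l2, which encodes NRF2, fell in C26 (-1.09, adjusted p 0.00089), and Cebpa (-1.68, adjusted p 3.6e-05) fell and Ahr (1.43, adjusted p 4.4e-05) rose in 8025. Of 18 known NRF2 target genes outside the transferases, 6 fell in C26 and none rose, while 3 fell and 1 rose in 8025. Me1 fell by 2.05 in C26 and 3.46 in 8025 on the log2 scale, Aox1 fell by 1.81 in C26, and Cyp2a5 fell by 2.71 in 8025. Of 10 other enzymes with transferase activity or related to the Mgst family, 2 rose in C26 and 1 in 8025. These were Alox5ap (1.48 and 2.64) and, in C26, Hpgds (1.16). Both are known from macrophages and mast cells as well; the macrophage marker sums given above moved with them, and their part was not tested.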

How the data were processed

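RNA was sequenced as total RNA without poly-A selection, in paired reads of 50 bases, per the labels' protocols. The submitters' processing notes name STAR 2.4.2a, mm10 and DESeq2 1.24.0, without saying what DESeq2 was used for. The deposited table holds raw read counts of 20105 genes, per the file headers taken over exons and introns alike, so that values include unspliced RNA; the counter and its strand setting are not given in the sources used here. The counted length was shorter than the span in 946 genes, which removes shared stretches such as the common Ugt1a exons. In all, 2208 genes had no counts.

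Library totals were 8.49 to 56.4 M counts (median 26.1) in hepatocyte nuclei and 12.2 to 30.3 M (median 20.1) in whole liver nuclei. Counts were scaled by TMM factors (0.900 to 1.12 and 0.905 to 1.14) and fitted with edgeR 4.0.16 (R 4.3.3, limma 3.58.1) by the quasi-likelihood test after filterByExpr. Each fraction was fitted over its 9 groups (13274 and 13738 genes), and both together over 72 libraries (14054 genes), with Benjamini-Hochberg adjustment over all genes. A call is an adjusted p under 0.05. Differences are log2 fold changes, and CPM are TMM-scaled. The labels give separate animal numbers for the replicates. Both libraries of an animal deviated together (median r 0.539, 34 of 36 best with their own animal), so the fraction comparison is also given with the animal as a block.

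The members and gene lists were chosen with earlier results of these data known. Called members with a log2 fold change of at least 1 and a mean of 5 CPM in either group were named, up to 8 in each direction. A list was also followed throughout (Ugt2b1, Ugt2b5, Gsta3, Gstm1, Gstm3, Gstp1, Gstt1, Gstt2, Gstz1, Gstk1, Gsto1, Mgst1). For these genes the values of each animal, their range or only the difference are given. Strain and fraction comparisons name up to 4 called members in each direction by the same minimum. Gstm2, Gstm4, Gstm6, Gstm7, Gstp2, Gstt3, Mgst2, Ugt2b36, Ugt2b37 and Ugt2b38 were named beyond this after their values were seen. Pathway lists name the 2 called genes with the smallest p, leaving some out. Alternatives were DESeq2 1.42.0 (its size factors and its test), no filter on low counts, only the groups compared, a replicate block and leaving out each library. For the comparison of fractions each PBS animal was left out with both its libraries. The edgeR fit was tested on simulated data.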

Additional observations from a re-analysis of the deposited data

Results flagged for a closer look

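Single animals stood apart from the other 3 of their group in 6 of 171 sets of 4 hepatocyte values (19 genes), by Dixon's gap test on each set. Chance gives such a gap in about 5% of groups. Gsta4 in 8025 cachexia was 11.1 CPM in animal 3 and 1.63 to 2.29 in the others. Gstm3 in the same animal was 12.1 CPM, against 0.295 to 1.31 in the others. Gstp1 in C26 cachexia was 47.4 CPM in animal 2 and 10.6 to 16.4 in the others. Gsta4 in C26 PBS animals was 23.0 CPM in animal 3, with 16.3 to 17.2 in the others. Gstk1 with MC38 tumours was 8.33 CPM in animal 1 and 10.2 to 10.5 in the others. Gstm3 in MC38 PBS animals was 0.765 CPM in animal 2, with 0.286 to 0.360 in the others.

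Effects differed between models or tumour kinds for the following genes, each by edgeR's test of the difference (log2). In hepatocyte nuclei, the C26 effect minus the 8025 effect was -2.18 for Gstm2 (adjusted p 0.038) and 1.36 for Gstt1 (0.04). The C26 minus the NC26 effect was -2.42 for Gstp1 (adjusted p 0.0083) and -2.56 for Ugt2b1 (0.0077). The 8025 minus the MC38 effect was negative for 11 genes: Ugt2b38 -9.41, Ugt2b37 -6.57, Ugt2b1 -4.36, Ugt1a10 -2.90, Ugt2a3 -2.66, Ugt2b35 -2.58, Gstp1 -2.38, Ugt2b5 -2.29, Gstt1 -1.64, Ugt2b34 -1.56 and Gsta3 -1.29 (adjusted p 1.2e-05 to 0.043). It was positive for Gstm7, 3.22, and Gstm2, 2.13 (adjusted p 0.017 and 0.031). The values of Ugt2b37 and Ugt2b38 rest on MC38 tumour animal 2, without which they were -1.34 (adjusted p 0.68) and -5.61 (adjusted p 0.059). The calls of Ugt2b37, Ugt2b34, Ugt1a10 and Gstm2 were also lost without other single libraries, as given above.

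In whole liver nuclei, the C26 minus the 8025 effect was 2.99 for Ugt1a10, 1.70 for Gstt3, 1.04 for Gstt1 and -1.58 for Gstm2 (adjusted p 0.013 to 0.044). The C26 minus the NC26 effect was -2.88 for Ugt2b1, -2.73 for Gstp1, -2.09 for Ugt2b5 and -1.96 for Ugt2b35 (adjusted p 0.00089 to 0.033). The 8025 minus the MC38 effect was -10.05 for Ugt2b38, -6.97 for Ugt2b37, -5.10 for Ugt2b1, -3.25 for Ugt2b35, -3.13 for Ugt2a3, -3.03 for Ugt1a10, -2.81 for Ugt2b5, -2.16 for Ugt2b34, -1.95 for Gstp1, -1.59 for Ugt2b36, -1.54 for Gstt1, -1.49 for Gsta3, -0.998 for Mgst1 and 1.67 for Gstm2 (adjusted p 1.7e-06 to 0.038). Without MC38 tumour animal 2, Ugt2b37 was -1.37 (adjusted p 0.63) and Ugt2b38 -6.28 (adjusted p 0.0094). The Gstm2 call of 8025 minus MC38 was lost without any of 8 libraries (adjusted p 0.050 to 0.11), and that of Mgst1 without any of 4 (0.050 to 0.080).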

How the results depend on the processing

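In hepatocyte nuclei, counts of called genes stayed at 12 to 13 in C26 cachexia and 15 to 19 in 8025 cachexia under the alternatives that kept all libraries, and at 9 to 13 and 16 to 19 when 1 library was left out. A replicate block by animal number gave 13 and 19, but the numbers were not taken as pairs, since in no comparison did all 4 same-numbered pairs deviate together by r over 0.1. C26 pre-cachexia against PBS in hepatocyte nuclei came nearest (r 0.072 to 0.395, 3 of 4 over 0.1), and the other comparisons ranged from -0.27 to 0.21. DESeq2 called 1 gene at pre-cachexia in hepatocyte nuclei and 2 in whole liver, 1 for MC38 in whole liver nuclei, and 5 each for C26 minus 8025 and C26 minus NC26 in hepatocyte nuclei. With only the groups compared, the counts were 0 for C26 minus 8025 and 6 for C26 minus NC26 in hepatocyte nuclei, and 2 for pre-cachexia, 2 for C26 minus 8025 and 9 for C26 minus NC26 in whole liver nuclei. The replicate block gave 0 for C26 minus 8025 in hepatocyte nuclei. The animal block gave 23 between fractions.

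Leaving out 1 library gave 0 to 1 calls at pre-cachexia, 0 to 4 for C26 minus 8025, 2 to 5 for C26 minus NC26 (5 without C26 PBS animal 1) and 8 to 14 for 8025 minus MC38 in hepatocyte nuclei. In whole liver nuclei it gave 0 to 2 at pre-cachexia, 2 to 5 for C26 minus 8025 and 7 to 15 between strains. Of 153 calls on single genes, 0 were lost with DESeq2's test, 1 with its size factors and 4 without a filter, and 17 of 149 with only the groups compared. Fits that left out 1 library or animal were counted for each call in each fit, so that these are not numbers of calls. Counted so, 230 were lost, 1562 kept and none of the called values reversed. The losses were spread over many genes and comparisons, and a single call could be lost without any of 11 libraries, as for Gstt3 in C26 minus 8025 in whole liver nuclei. Uncalled values changed sign for Gstm3 in C26 (-0.0562 without cachectic animal 4, up to 0.739), and in 8025 for Gstz1 (-0.182 to 0.0746, without cachectic animal 3) and Gsto1 (-0.445 to 0.0291, without PBS animal 4). Genes with few counts (Ugt2b37, Ugt2b38, Gstp2, Gstm2, Gstm7, Mgst2) are limited by depth.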
